A study of Mus musculus with 12 samples.

Results

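The genes described here are 9 myelin and oligodendrocyte genes, *Mbp*, *Mog*, *Mag*, *Mobp*, *Cnp*, *Cldn11*, *Mal*, *Ugt8a* and *Opalin*, taken by symbol from the 26409 genes of a table of hippocampal RNA sequencing. All 9 were listed and all 9 passed the filter on low values. The table held 12 libraries of micro-dissected hippocampus from adult mice, 3 each from female WT, male WT, female *Dek* cKO and male *Dek* cKO animals, with no other treatment in any group. The cKO is a constitutive knockout on a C57BL/6 background, made by crossing mice with floxed *Dek* to CMV-Cre mice, so the allele was deleted in the germline and in every cell type. Cre was then bred out and the line was kept by mating heterozygotes. The study's methods give a range of ages in months for these mice. The individual ages were not given in the labels, so the age of each group is unknown. The comparison asks whether the loss of *Dek*, a gene for a chromatin-bound DNA-binding protein, altered the oligodendrocyte transcripts of this tissue.

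*Dek* was listed at 44.2 to 51.9 TPM (median 48.8) in WT and at 5.55 to 9.25 TPM (median 6.99) in *Dek* cKO libraries, with no overlap. TPM values are corrected for transcript length and scaled per library, so levels of different genes can be compared, but the read depth behind a value is unknown. The 3 female WT libraries carried names that start with C57 and the other 9 names that start with CMV, so that prefix and the female WT group cannot be told apart. By Y-linked genes, 2 libraries went against their sex label, female cKO replicate 3 (*Eif2s3y* 72.7 TPM) and male cKO replicate 1 (0.111 TPM). Each result below is by label. *Mbp* and *Mobp* are also given without these 2 libraries for both sexes together, and without male cKO replicate 1 in males. The female difference without female cKO replicate 3 is not given. Neuronal *Snap25* (1739 ± 77.0 TPM in WT, SD, n = 6) and *Nptx1*, the highest of 8 genes of the hippocampal fields (198 ± 16.7 TPM), were well expressed, as the label of the tissue says.

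Oligodendrocytes wrap axons in myelin, a stack of membrane that speeds conduction. *Mbp* encodes the basic protein that holds the inner faces of the membrane together, and *Mobp* a small basic protein of the same layers. *Cnp* encodes an enzyme of the cytoplasmic channels of the sheath, *Cldn11* the claudin of its tight junctions, *Mal* a proteolipid of myelin membrane transport and *Ugt8a* the enzyme that makes galactosylceramide, a main lipid of myelin. *Mag* and *Mog* are cell-adhesion proteins of the innermost and outermost faces of the sheath, and *Opalin* is a transmembrane glycoprotein of mature oligodendrocytes. Transcription of such genes in mature oligodendrocytes depends on the factors SOX10 and MYRF.

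The windows before the annotated gene starts are shown because these genes moved together across the libraries, as described below. RefSeq windows (GRCm38.p6) were at hand for 8 of the 9 genes, as 10 windows. The 250 bases before each start were searched on both strands for SOX core words (ACAAAG or ACAATG) and MYRF core words (CTGGCAC or CTGGTAC), which are in capitals below and do not overlap each other. SOX words were found in 5 of the 10 windows (4 genes) and MYRF words in 4 of the 10 (3 genes). They were found in 25.2% and 5.93% of 32851 windows of all genes. Among 23 windows of other mature oligodendrocyte genes the shares were 34.8% and 13%. Windows of *Mal*, *Cldn11* and *Ugt8a* held neither. *Mag* had more than 1 window, and the one at chr7:30914322-30914571 held neither. Its window at chr7:30914864-30915113 overlaps that at chr7:30914923-30915172, and both hold the same SOX word and the same MYRF word. These words are counted in both windows, so the counts of windows for the 9 genes are higher than those of separate sites. The *Mobp* window lies at chr9:120149492-120149706 on the plus strand, *Mag* at chr7:30914923-30915172 on the minus strand, *Cnp* at chr11:100574689-100574903 on the plus strand, *Mog* at chr17:37023399-37023648 on the minus strand and *Opalin* at chr19:41077114-41077363 on the minus strand. *Mobp* and *Cnp* are cut where their first annotated exon begins.
Mobp: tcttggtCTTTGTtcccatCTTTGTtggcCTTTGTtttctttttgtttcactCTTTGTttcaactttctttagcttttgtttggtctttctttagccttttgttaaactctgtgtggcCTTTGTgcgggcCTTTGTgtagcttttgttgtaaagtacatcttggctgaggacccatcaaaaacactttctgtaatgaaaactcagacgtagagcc
Mag: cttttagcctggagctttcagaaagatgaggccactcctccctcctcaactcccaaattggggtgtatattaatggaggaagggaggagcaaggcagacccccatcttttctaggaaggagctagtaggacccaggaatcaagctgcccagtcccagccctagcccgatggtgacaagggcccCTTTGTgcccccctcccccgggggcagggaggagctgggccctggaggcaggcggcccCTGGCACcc
Cnp: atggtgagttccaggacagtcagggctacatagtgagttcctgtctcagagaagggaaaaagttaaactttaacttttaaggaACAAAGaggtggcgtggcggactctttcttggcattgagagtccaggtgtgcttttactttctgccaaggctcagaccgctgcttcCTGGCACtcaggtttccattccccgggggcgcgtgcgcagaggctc
Mog: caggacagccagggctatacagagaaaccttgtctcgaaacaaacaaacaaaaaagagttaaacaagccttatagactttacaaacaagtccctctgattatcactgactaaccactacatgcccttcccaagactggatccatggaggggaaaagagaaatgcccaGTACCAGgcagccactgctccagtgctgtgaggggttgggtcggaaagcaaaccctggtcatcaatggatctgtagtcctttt
Opalin: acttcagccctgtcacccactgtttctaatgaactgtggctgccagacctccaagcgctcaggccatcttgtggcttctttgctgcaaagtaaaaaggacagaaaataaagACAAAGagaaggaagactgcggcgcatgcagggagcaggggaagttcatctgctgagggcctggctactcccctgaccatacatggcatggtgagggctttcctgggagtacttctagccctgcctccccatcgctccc
The *Mobp* window held 6 SOX words, all on the strand opposite to the gene, and was the 1 window of 32851 with as many (0.00304%). *Mag* and *Cnp* each held 1 word of either kind, *Mog* held 1 MYRF word and *Opalin* 1 SOX word. A match of letters is not a binding site, and no binding was measured here.

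*Mbp* was the most abundant of the 9 transcripts, and the order of the genes by level was nearly the same in every library. Mean levels over the 12 libraries were 2182 ± 479 TPM for *Mbp* and 489 ± 127 TPM for *Mobp* (SD, n = 12). *Cnp* followed at 206 ± 39.8 TPM, *Cldn11* at 123 ± 28.9 TPM and *Mal* at 111 ± 22.8 TPM. The lower levels were those of *Mog* at 57.2 ± 12.7 TPM, *Ugt8a* at 25.1 ± 5.28 TPM and *Opalin* at 23.4 ± 4.16 TPM. Within single libraries each of *Mbp*, *Mobp*, *Cnp*, *Mal* and *Mog* stood above the next gene in 12 of 12, and *Cldn11* stood above *Mal* in 11 of 12, although their ranges overlapped. *Ugt8a* and *Opalin* did not differ beyond their spread, with *Ugt8a* the higher in 7 of 12. The 9 genes together made up 0.236% to 0.484% of the listed TPM, and *Mbp* alone gave 65.6% to 69.3% of that sum.

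Apart from *Mag*, the 9 genes varied over the libraries by similar amounts, with coefficients of variation of 17.8% (*Opalin*) to 26.0% (*Mobp*). Male WT replicate 2 held the lowest value of 8 of the 9 genes and male cKO replicate 3 that of *Mog*. Male cKO replicate 3 was among the lowest 3 libraries for 8 genes and male cKO replicate 2 for 7. Female cKO replicate 2 held the highest value of 5 genes. The highest library stood 1.70 times above the lowest for *Opalin* and 2.40 times for *Mobp*, the other 6 genes apart from *Mag* lying between. In bulk tissue, fewer oligodendrocytes and less RNA per oligodendrocyte cannot be told apart.

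**Figure D1:**
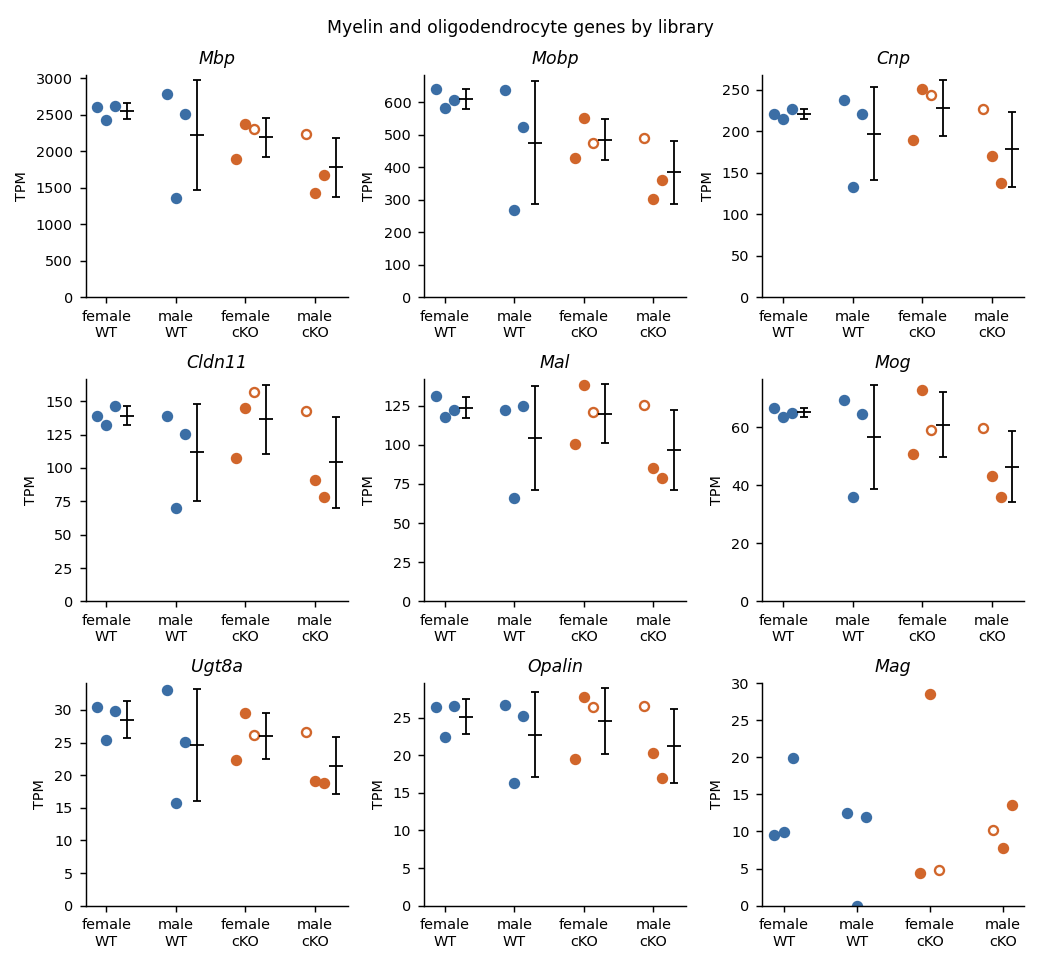
TPM of the 9 genes (vertical axes, linear, from 0) in the 12 libraries of the 4 groups (blue WT, orange *Dek* cKO; open points, the 2 libraries whose Y-linked genes went against the label; bars, mean ± SD of 3, left out for *Mag*). Male WT replicate 2 is the lowest point of 8 panels, at 1363 TPM for *Mbp*, and WT and *Dek* cKO values overlap in all 9.

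None of the 9 genes passed the test for a genotype difference. *Mbp* was listed at 2601, 2423 and 2616 TPM in female WT, 2777, 1363 and 2509 TPM in male WT, 1885, 2372 and 2305 TPM in female *Dek* cKO, and 2229, 1431 and 1669 TPM in male *Dek* cKO libraries. All 6 *Dek* cKO values lay below 5 of the 6 WT values and above male WT replicate 2, so the groups overlapped through that library. On the log2(TPM + 0.1) scale the difference of *Mbp* was −0.25 (*Dek* cKO minus WT, SE 0.17), with a 95% interval of −0.63 to 0.12 and an adjusted p value of 0.871 by limma. *Mobp* was listed at 641, 583 and 607 TPM in female WT, 637, 267 and 525 TPM in male WT, 429, 553 and 474 TPM in female *Dek* cKO, and 490, 301 and 362 TPM in male *Dek* cKO libraries. Its highest *Dek* cKO value, 553 TPM, lay above male WT replicates 2 and 3 and below the other 4 WT values. The difference of *Mobp* was −0.29 (SE 0.21, interval −0.74 to 0.15, limma adjusted p value 0.877). Counted over the 9 genes, 0 passed (adjusted p below 0.05 and a change of more than 1.2-fold), where 27 of the 18197 genes tested did (0.148%), and 0 were at an unadjusted p under 0.05, where 6.64% of all genes were. The groups overlapped for all 9, as for all but 0.676% of genes.

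The remaining structural genes had smaller differences. *Cnp* ranged from 133 to 237 TPM (median 220) in WT and from 137 to 251 TPM (median 208) in *Dek* cKO libraries, a log2 difference of −0.05 (interval −0.40 to 0.31). *Cldn11* ranged from 70.3 to 146 TPM (median 136) in WT and from 78.2 to 157 TPM (median 125) in *Dek* cKO, a difference of −0.07 (−0.51 to 0.37). *Mal* ranged from 66.0 to 131 TPM (median 122) in WT and from 79.0 to 138 TPM (median 111) in *Dek* cKO, a difference of −0.07 (−0.45 to 0.31). For each of these 3 genes the highest of the 12 values came from a *Dek* cKO library and the lowest from male WT replicate 2. The adjusted p values were 0.982 to 0.989 (limma).

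*Mog*, the gene of the outer adhesion protein, ranged from 36.0 to 69.4 TPM (median 64.7) in WT and from 36.0 to 72.8 TPM (median 54.9) in *Dek* cKO libraries, a log2 difference of −0.19 (interval −0.58 to 0.21). The lipid enzyme *Ugt8a* ranged from 15.7 to 33.0 TPM (median 27.6) in WT and from 18.8 to 29.4 TPM (median 24.2) in *Dek* cKO, a difference of −0.14 (−0.51 to 0.22). *Opalin* ranged from 16.3 to 26.7 TPM (median 25.8) in WT and from 16.9 to 27.7 TPM (median 23.3) in *Dek* cKO, a difference of −0.07 (−0.39 to 0.25). All 3 overlapped widely, with adjusted p values of 0.917 to 0.979 (limma). Over the 9 genes, 8 differences were negative and 1 positive, and their median of −0.07 stands beside a median of 0.02 over all 18197 genes. Of all genes, 8041 differences were negative and 10156 positive. The 9 genes moved together across the libraries, so their signs are not independent.

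*Mag* varied the most between libraries. It was listed at 9.57, 9.89 and 19.8 TPM in female WT, 12.5, 0.00237 and 11.97 TPM in male WT, 4.39, 28.6 and 4.76 TPM in female *Dek* cKO, and 10.2, 7.83 and 13.6 TPM in male *Dek* cKO libraries. Male WT replicate 2 was all but at 0, although the other 8 genes were well above 0 there, and female cKO replicate 2 was the highest of the 12. The log2 difference of *Mag* was 0.76 (SE 1.07, limma adjusted p value 0.950) and turned to −0.40 (SE 0.42) without male WT replicate 2. How the estimate of near 0 arose was not tested.

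These differences depended on which WT libraries were set against the *Dek* cKO. Without male WT replicate 2 the difference of *Mbp* was −0.41 (SE 0.12, unadjusted p 0.00573, adjusted p value 0.508 in limma) and that of *Mobp* −0.49 (SE 0.13, unadjusted p 0.00328, adjusted 0.390). Within the 9 libraries named CMV, which leave male WT alone as the control, *Mbp* was at −0.12 (SE 0.23) and *Mobp* at −0.07 (SE 0.26). *Cnp*, *Cldn11*, *Mal* and *Opalin* were then slightly positive, from 0.02 to 0.12. Without the 2 libraries of conflicting sex, the differences of *Mbp* and *Mobp* were −0.36 (SE 0.20) and −0.38 (SE 0.24). None of the 9 genes passed the test in any of these fits.

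The sexes were also compared one at a time, by label. Each *Dek* cKO group then held a library whose Y-linked genes went against its label, so these values are not cleanly of 1 sex. In females 8 of the 9 differences were negative, with a median of −0.11, where 8314 of 18197 genes were negative. *Mobp* was at −0.34 (SE 0.27) and *Mbp* at −0.23 (SE 0.24), the latter at −0.12 without female cKO replicate 1. In males 8 of 9 were negative, with a median of −0.13, where 8168 of 18197 genes were negative. There *Mbp* was at −0.28 (SE 0.24) and *Mobp* at −0.25 (SE 0.27). The male values moved with single libraries. Without male cKO replicate 1, whose Y-linked genes went against its label, *Mbp* in males was at −0.45 and *Mobp* at −0.44, and without male WT replicate 2 they were at −0.60 and −0.62. Without male WT replicate 1 they were at −0.08 and 0.008, without male WT replicate 3 at −0.16 and −0.13, and without male cKO replicate 2 at −0.13 and −0.09. Of the 9 genes 0 passed in either sex, where 0.0165% of all genes passed in each, and 0 were at an unadjusted p under 0.05, where 5.79% of all genes were in females and 5.45% in males. An interaction term tested whether the difference was unequal in females and males, and it called 0 of the 9 and 0 of all genes (4.23% of all genes and 0 of the 9 at an unadjusted p under 0.05). Its interval for *Mbp* ran from −0.68 to 0.78, so that sizeable differences between the sexes were not detectable. Male WT libraries were lower than female WT for 9 of 9 genes, with a median log2 difference of −0.27, where 9806 of 18197 genes were lower. In limma 0 of the 9 and 0 of all genes passed, and 0 of the 9 were at an unadjusted p under 0.05, where 3.63% of all genes were. *Mbp* moved from −0.27 to 0.05 without male WT replicate 2.

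White matter content was gauged from 24 other genes of mature oligodendrocytes, such as *Fa2h* and *Aspa*, averaged on the log2 scale into an index that holds none of the 9. The index ran from −0.69 to 0.26 (median 0.17) in WT and from −0.36 to 0.32 (median 0.02) in *Dek* cKO libraries. Male WT replicate 2 was the lowest at −0.69, followed by male cKO replicate 2 at −0.36 and male cKO replicate 3 at −0.35. These were the same 3 libraries that were low for most of the 9 genes.

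In a limma fit with genotype in the model, 8 of the 9 genes rose with the index, where 117 of 18197 genes passed (0.643%). Of these, 114 rose and 3 fell, and 20 of those that rose are genes of the index itself. The 9 genes and the index genes are all of mature oligodendrocytes, so a relation was likely before the test. A slope of 1 means that the gene changed by as much as the index. *Mobp* had the steepest slope of the 8 at 1.25 (SE 0.08, adjusted p value 3.15e-05), with an interval of 1.07 to 1.43. *Cldn11* followed at 1.19, *Mog* at 1.08, *Mal* at 1.05, *Mbp* at 1.03, *Ugt8a* at 1.00 and *Cnp* at 0.95. *Opalin* had the shallowest slope, 0.82 (SE 0.11, adjusted p value 0.00384). *Mag* had a slope of 5.17 (SE 1.18, adjusted p value 0.0983), which fell to 1.06 (SE 1.04) without male WT replicate 2. Without that library *Opalin* no longer passed (slope 0.92, adjusted p value 0.0918), and the slopes of the other 7 stayed past the threshold at 0.96 to 1.31.

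The same relation was read as a correlation over the 12 libraries. Pearson's r of the 8 genes lay between 0.925 for *Opalin* and 0.976 for *Mal* (permutation p 4e-05 to 0.00024), and Spearman's rho between 0.797 and 0.937 (permutation p 8e-05 to 0.00306). The 2 libraries farthest from the median index were male WT replicate 2 and male cKO replicate 2, and without them r was 0.859 to 0.953 (permutation p 0.00024 to 0.00836). Within the 6 *Dek* cKO libraries r was 0.909 to 0.997 (exact permutation p 0.00278 to 0.0417). Within the 6 WT libraries r was 0.956 to 0.997 (exact permutation p 0.00556 to 0.172), where male WT replicate 2 stood alone at the low end. *Mag* had an r of 0.748 (permutation p 0.0224) and a rho of 0.657, and its r was 0.333 (permutation p 0.344) without the 2 farthest libraries, so its relation rests on them.

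**Figure D2:**
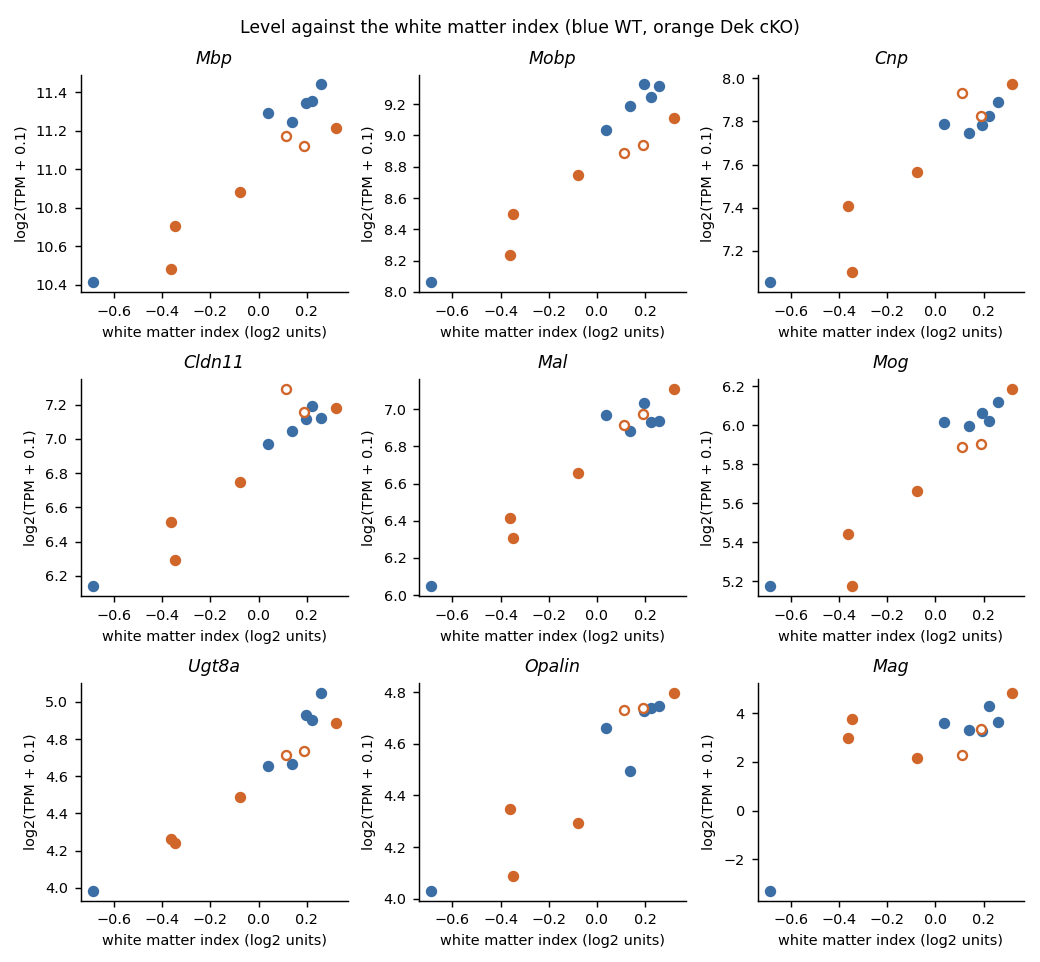
Level of each gene on the log2(TPM + 0.1) scale (vertical axes, each with its own range) against the white matter index (horizontal axes, log2 units) in the 12 libraries (blue WT, orange *Dek* cKO, open points the 2 libraries of conflicting sex). In 8 panels the points lie near a line, and in the *Mbp* and *Mobp* panels *Dek* cKO points lie under WT points of like index. In the *Mag* panel male WT replicate 2 lies far below the rest.

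Subtracting the index took away most of the spread of 8 genes. The SD over the 12 libraries fell from 0.33 to 0.07 for *Mal* and from 0.35 to 0.12 for *Mbp* (log2 units), while for *Mag* it was 2.07 before and 1.85 after. Relative to the index, *Mbp* lay between 0.05 and 0.20 in the 6 WT libraries and between −0.21 and 0.003 in the 6 *Dek* cKO libraries, so that all *Dek* cKO values were below all WT values. Of the 114 genes that rose with the index, *Mbp* was the 1 gene whose *Dek* cKO values all lay below WT (0.877%). *Fbxw15*, named after its values were seen, was the 1 gene whose values all lay above, so that 2 of 114 did not overlap (1.75%). These 114 include 20 of the 24 index genes, which are part of the index that was subtracted. The share over all genes tested is not given here, so how rare such a separation is cannot be read from this count. The gap between the groups of *Mbp* was narrow, from 0.003 in female cKO replicate 3 to 0.05 in male WT replicate 2. It also held with the 9 CMV-named libraries taken alone, since these are part of the 12.

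*Mobp* showed nearly the same order. Its values relative to the index were −0.29 to −0.04 in *Dek* cKO, below 5 of the 6 WT libraries (0.12 to 0.25), and male WT replicate 2, at −0.13, lay among the *Dek* cKO values. For *Mog*, 4 *Dek* cKO values lay below all WT values, with medians of 0.06 in WT and −0.04 in *Dek* cKO. *Ugt8a* was at medians of 0.05 and −0.05, with 4 WT values above all *Dek* cKO values. *Cnp*, *Cldn11*, *Mal* and *Opalin* had medians within 0.05 of 0 in both genotypes, and their groups overlapped.

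**Figure D3:**
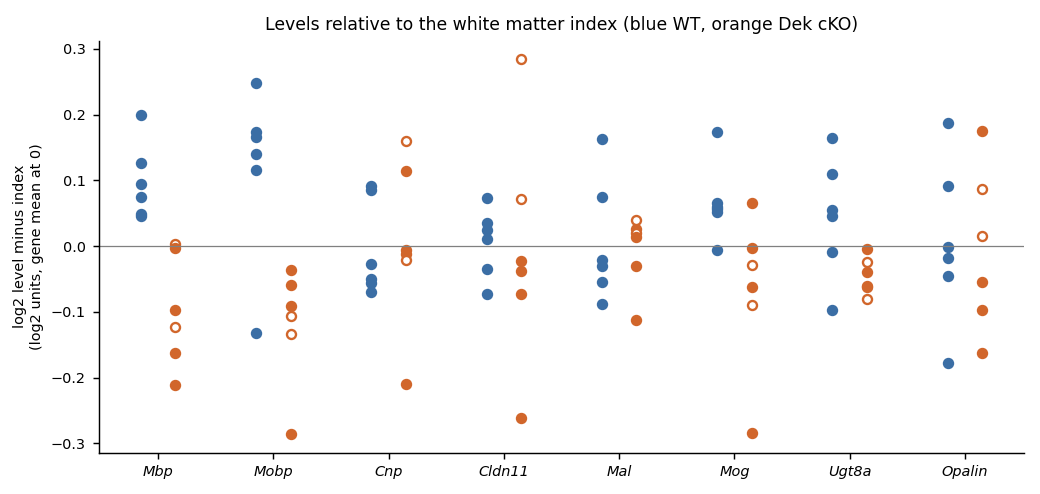
Log2 level minus the white matter index (vertical axis, log2 units, each gene centred at 0) for 8 genes in 12 libraries (blue WT on the left, orange *Dek* cKO on the right, open points the 2 libraries of conflicting sex), *Mag* being left out for its range. For *Mbp* the 6 WT points, 0.05 to 0.20, all lie above the 6 *Dek* cKO points, and for *Mobp* 5 of the 6 do.

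With the index as a covariate the genotype differences had smaller errors, and none passed the test. The index is made from genes of the same cells, so a genotype difference shared with them would not be seen in this fit. *Mobp* was at −0.22 (SE 0.05, interval −0.33 to −0.12, unadjusted p 0.00061, adjusted p value 0.152 in limma). At an equal index this is a level in *Dek* cKO of 0.856 of that in WT. *Mbp* was at −0.20 (SE 0.05, interval −0.31 to −0.09, unadjusted p 0.00211, adjusted 0.2998), or 0.873 of WT at an equal index. *Mog* was at −0.13 (SE 0.06, unadjusted p 0.0385, adjusted 0.694). *Ugt8a* was at −0.09 (interval −0.20 to 0.02). *Opalin*, *Mal*, *Cldn11* and *Cnp* were at −0.02, −0.01, −0.002 and 0.006, with intervals that reached no further than −0.17 and 0.14. *Mag* was at 1.04 (SE 0.70). Of the 9 genes 0 passed, where 24 of 18197 genes did (0.132%), and 3 of 9 were at an unadjusted p under 0.05, where 6.85% of all genes were. Among the 114 genes that rose with the index, 13.2% were at an unadjusted p under 0.05, 5 lower and 10 higher in *Dek* cKO. The 5 lower genes include *Mbp*, *Mobp* and *Mog* themselves. Of the 114 genes, 4 had a smaller p than *Mbp* and 2 a smaller p than *Mobp*.

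The covariate estimates of *Mbp* and *Mobp* moved little with the libraries used. Leaving out each library in turn gave −0.22 to −0.17 for *Mbp* and −0.27 to −0.21 for *Mobp*, and adjusted p values of 0.170 to 0.585 and of 0.0337 to 0.378 (limma). The lowest, 0.0337 for *Mobp* without male cKO replicate 3, came with a log2 difference of −0.26, short of the fold change of 1.2. Within the CMV-named libraries *Mbp* was at −0.23 (SE 0.07, unadjusted p 0.0113) and *Mobp* at −0.19 (SE 0.07, unadjusted p 0.0177), with adjusted p values of 0.832 and 0.916. By sex label, the covariate fit gave −0.15 in females and −0.23 in males for *Mbp*, and −0.26 and −0.20 for *Mobp*.

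**Figure D4:**
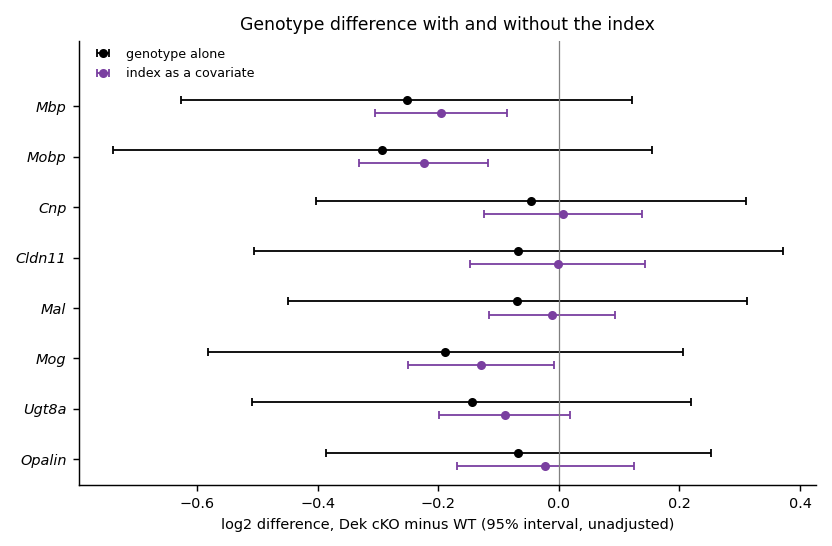
Log2 difference, *Dek* cKO minus WT, of 8 genes (points) with 95% intervals not adjusted for multiple tests (bars), for genotype alone (black) and with the white matter index as a covariate (purple), *Mag* being left out for its range. With the index the intervals of *Mbp* (−0.31 to −0.09), *Mobp* and *Mog* lie below 0, while no gene passed the adjusted test in either fit.

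Among genes averaging 1 TPM or more, those outside the 9 whose profile over the 12 libraries was most like their mean profile included *Cryab* (r = 0.984), *Prr18* (0.982), *Fa2h* (0.979) and *Plekhh1* (0.970). *Fa2h*, the gene of a fatty acid hydroxylase of myelin lipids, also belongs to the index. Among the 14160 genes so ranked, 8 of the 9 genes stood between rank 2 (*Mal*) and rank 21 (*Mobp*), and *Mag* stood at rank 267. Each of the 9 is itself part of the mean profile, so their own ranks are raised by how it was made. This likeness is a description over 12 libraries between which the white matter index also varied.

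Genes of the rest of the lineage were read in the same test, and none passed for genotype. Of 24 index genes, 0 passed and 18 differences were negative (median −0.07), with *Ppp1r14a* the lowest at −0.22 and *Gjb1*, a connexin of oligodendrocytes, the highest at 0.08. Of 9 genes of oligodendrocyte precursors, 0 passed and 8 differences were negative (median −0.15). *Vcan*, which encodes the proteoglycan versican, had the largest at −0.37 (SE 0.11, unadjusted p 0.00434, limma adjusted p value 0.407), from 7.11 ± 0.949 to 5.47 ± 0.630 TPM (SD, n = 6). The precursor gene *Pdgfra*, at 14.9 and 14.6 TPM, differed by −0.04. Of 7 genes of newly formed oligodendrocytes 0 passed (median −0.03), with *Bcas1* at −0.13 and *Tns3* at 0.14.

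None of the regulators and enzymes behind the 9 genes passed. Of 9 transcription factors of the lineage 0 passed (median −0.005), with *Olig1* at 79.8 ± 7.53 TPM in WT and 81.1 ± 10.4 TPM in *Dek* cKO, and with *Zfp536* the lowest at −0.41 (SE 0.28) and *Zfp488* the highest at 0.16. Of 10 enzymes of myelin lipids 0 passed (median 0.04), between *Aspa* at −0.13 and *Elovl1* at 0.13, and *Psap* was the most abundant at 249 TPM in WT. The receptor complex through which *Mag* and other myelin proteins limit axon growth was represented by 8 genes, of which 0 passed (median 0.04), with *Rtn4*, the gene of Nogo itself, at −0.07 and *Lingo1* at 0.11. Of 7 genes of the paranode and node 0 passed (median −0.04), with *Cntn1* at −0.03, *Nfasc* at 0.06 and *Cntnap2* at −0.17 (unadjusted p 0.0289).

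Markers of other cells were set beside the 9 genes. Schwann cells, which myelinate peripheral nerve, also express *Mbp* and *Mag*. Their marker *Pmp2* was at 0 to 0.0661 TPM over the 12 libraries. Of the 5 Schwann cell genes tested 0 passed (median 0.03), with *Ncmap* at 0.69, and *Pmp22*, which other cells also express, at 0.03. Neurons (8 genes, *Snap25* at 0.005, *Gad1* at 0.10, *Syt1* at −0.09), astrocytes (7 genes, *Gfap* at 0.50 with an SE of 0.35, *Aldoc* at −0.01, *Gja1* at −0.15), microglia (6 genes, *C1qa* at 0.19, *P2ry12* at −0.40) and endothelium (5 genes, *Itm2a* at −0.04, *Pecam1* at 0.04, *Cldn5* at −0.13) had medians of 0.01, −0.01, 0.09 and −0.04, with 0 genes passing in each.

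Markers of neighbouring tissue varied more from library to library. Choroid plexus genes (6 genes, median 0.17, *Aqp1* at 0.35, *Clic6* at 0.01) were led by *Ttr*, which ran from 37.5 to 4289 TPM over the 12 libraries. Genes of the thalamus and habenula (7 genes, median 0.28) held *Prkcd* at 24.8 TPM in WT and 26.0 TPM in *Dek* cKO, *Tnnt1* at 0.80 (unadjusted p 0.0461) and *Synpo2* at −0.22. Their mean level ran from −0.46 to 0.12 in WT and from −0.59 to 0.59 in *Dek* cKO, lowest in male cKO replicates 3 and 2 and male WT replicate 2. By sex label, the median difference of these 7 genes in females was 0.55. In that comparison 4 of 7 were higher in *Dek* cKO at an unadjusted limma p under 0.05, and 0 passed. In males the median was −0.03, with 0 of 7 at an unadjusted p under 0.05. The interaction term was at an unadjusted p under 0.05 for 1 of the 7 and passed for 0. The hippocampal fields (8 genes, median −0.04, *Nptx1* at 0.15, *C1ql2* at 0.34, *Wfs1* at −0.25) ran from −0.21 to 0.28. *Gfap* stood at 1267 TPM in male cKO replicate 3 and at 208 to 437 TPM elsewhere. Of the mean levels of 12 such lists, 0 reached an adjusted p under 0.05 for a correlation with the white matter index over the 12 libraries (Pearson's r 0.768 for newly formed oligodendrocytes, 0.694 for Schwann cells and 0.650 for the thalamus, permutation p adjusted over the 12 lists 0.0934 for each, and 0.181 or more for the others). Single genes of these lists did rise with the index in limma, namely 2 of 7 of newly formed oligodendrocytes (*Bcas1* and *Tns3*), 1 of 7 of the paranode and node (*Cntn2*) and 1 of 5 of Schwann cells (*Pmp22*). The part of dissection in the values of the 9 genes was not tested.

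**Figure D5:**
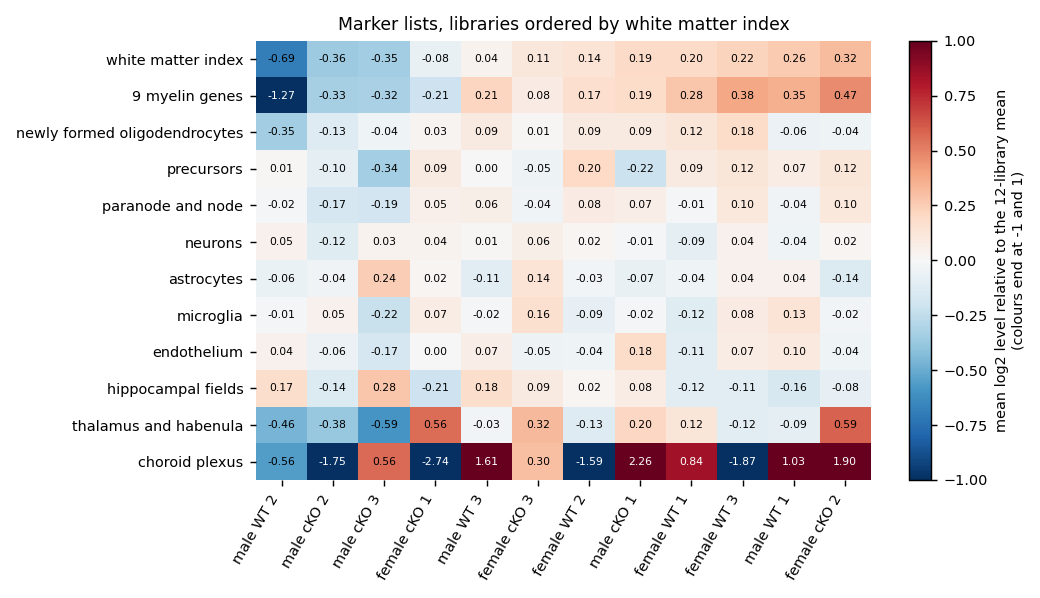
Mean log2 level of 12 gene lists relative to the 12-library mean (rows, colour and printed value, log2 units, colours ending at −1 and 1) in the 12 libraries ordered by white matter index (columns). The row of the 9 myelin genes follows the index row from male WT replicate 2 on the left to female cKO replicate 2 on the right, while choroid plexus values change sign along the row. *Mag* is averaged into the row of the 9 genes. In male WT replicate 2 that row reads −1.27 beside an index of −0.69, with *Mag* at −5.46 relative to the index.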

How the data were processed

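Hippocampal RNA of 12 mice was sequenced from poly-A libraries. The values are TPM as deposited by the authors, in 1 table that gives each library a column. The submitters' processing notes name kallisto and mm10, while the methods describe STAR alignment to GRCm38 and Salmon, and which of them made the deposited TPM is not stated. TPM keeps no counts, so the DESeq2 test of the study could not be run, depth is unknown and no counting interval can be given. Groups follow the labels. The study counts 3 samples per genotype and sex, taken here as 1 mouse each, and p-values measure the spread between these libraries.

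GENCODE M21 gave symbols for 25262 of the 26409 Ensembl IDs. The 18197 genes averaging 0.1 TPM or more were tested on the log2(TPM + 0.1) scale with limma (version 3.58.1, R 4.3.3), a trended prior variance, two-sided moderated statistics and Benjamini-Hochberg adjustment over all genes tested, and the scripts were tested on simulated data. To pass, a gene needed an adjusted p below 0.05 and a change of more than 1.2-fold. Both sexes were compared as 6 against 6 libraries, and the other contrasts came from 1 fit of 4 groups. Permutation tests drew 100000 resamples or, within a genotype, all orders. Beyond the 9 genes, those named are *Dek*, the gene of each of the other 15 lists with the highest mean, largest rise and largest fall, any that passed, and the 5 most alike in profile, of which some are not reported here. *Eif2s3y*, *Pmp2* and others were named after their values were seen. The 9 genes and the lists were chosen with earlier results of these data known. *Lhfpl3* of the precursor list was not among the genes analysed here. Alternatives were another pseudocount, filter, scaling or prior, other sets of libraries, sex or the index as a covariate, and a replicate block. Those of the covariate fit were added after seeing the data.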

Additional observations from a re-analysis of the deposited data

Results flagged for a closer look

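In WT, male replicate 2 stood apart from the other 5 libraries for 6 of the 9 genes, its gap to the nearest library divided by the range being over Dixon's critical value for groups of 6. *Mbp* was at 1363 TPM there, with the nearest library at 2423 TPM. *Mobp* was at 267 TPM (nearest 525), *Cnp* at 133 TPM (nearest 215), *Cldn11* at 70.3 TPM (nearest 125), *Mal* at 66.0 TPM (nearest 118) and *Mog* at 36.0 TPM (nearest 63.7). These were 6 of 18 groups of values tested, where chance flags about 1 in 20, and the 6 flags share 1 library and are not independent.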

How the results depend on the processing

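Of 846 values recomputed under alternatives, 831 were counted as unchanged. For the value of a single gene this means the same direction and the same side of the threshold. A count of passing genes was allowed a small change. The median of the 9 genes was allowed a shift within the spread between replicates, so its sign was not checked. The count of the 9 genes that passed stayed at 0 for genotype in both sexes, in each sex, in the interaction and between the WT sexes under every alternative run, and at 7 to 9 for the index slope when 1 library was left out. Of the log2 differences of single genes, none of which passed, 13 values turned sign. Without male WT replicate 2, *Mag* was at −0.40 (0.76 with it), *Mbp* between the WT sexes at 0.053 (−0.27 with it), and *Opalin* lost its slope (0.92). Without male cKO replicate 3, *Cnp*, *Cldn11*, *Mal* and *Opalin* were at 0.061, 0.048, 0.016 and 0.015, and *Mag* gained its slope (6.08, limma adjusted p 0.0215). *Cldn11* was at 0.0029 without male cKO replicate 2, and *Mobp* in males at 0.0081 without male WT replicate 1 (−0.25 with it). In the CMV-named libraries *Cnp*, *Cldn11*, *Mal* and *Opalin* were at 0.058, 0.12, 0.081 and 0.019, and *Cnp* was at 0.0062 with the index as a covariate. Leaving out 1 library at a time gave −0.41 to −0.16 for *Mbp*, −0.49 to −0.19 for *Mobp*, −0.33 to −0.08 for *Mog*, −0.40 to 1.12 for *Mag*, −0.17 to 0.061 for *Cnp*, −0.23 to 0.048 for *Cldn11*, −0.22 to 0.016 for *Mal* and −0.17 to 0.015 for *Opalin* in both sexes, −0.62 to 0.0081 for *Mobp* in males, and −0.46 to 0.053 for *Mbp* between the WT sexes. Slopes ran from 0.76 to 0.92 for *Opalin* and from 1.06 to 6.08 for *Mag*. Over all genes, 27 passed for genotype, 17 with no filter, 16 without the 2 libraries of conflicting sex, 8 in the CMV-named libraries, and 13 without female cKO replicate 2. The index slope passed in 117 genes, in 41 without male WT replicate 2 and in 38 in the CMV-named libraries. Replicate numbers did not pair the samples (deviations of same-numbered libraries correlated at −0.0385 to 0.0445). With a replicate block *Mbp* was at −0.25 (SE 0.09, limma adjusted p 0.737) and *Mobp* at −0.29 (SE 0.10, adjusted p 0.693), and 0 of the 9 and 3 of all genes passed. The cause of these changes was not tested.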
